A study of Mus musculus with 6 samples.

Results

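The genes of cholesterol and fatty acid synthesis were followed in mouse mammary tumour cells that had been growing in the lung. The set held 36 genes chosen by name, made up of 18 for sterol synthesis, 6 for sterol sensing and transport, 7 for fatty acid synthesis and 5 for the sterol efflux programme of the liver X receptors (LXR). Each gene was read on 1 probe set, the one with the highest mean over the 6 arrays among those whose annotation gave that symbol alone. Of the 36 genes, 34 had such a probe set and passed the filter on dim genes, out of 18193 genes with a probe set and 13090 tested. The expression of Acat2 and Nr1h2 was not analysed here.

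The cells were MVT1, a transplantable line from a mammary tumour of mice carrying Myc and Vegf transgenes, tagged with green fluorescent protein (GFP). FVB/N mice, the strain from which the line came, received 3000000 of these cells through a vein, and GFP-positive cells were later sorted from the lungs. A daily gavage began 1 week after injection, either with GW2580, a kinase inhibitor of the CSF1 receptor of macrophages, at 160 mg per kg or with its vehicle of hydroxypropylmethylcellulose and Tween-80. The 3 groups of 2 arrays were vehicle at 1 week, which the labels call the micrometastatic stage, vehicle at 2 weeks, called macrometastatic, and GW2580 at 2 weeks. Each vehicle group came from 2 mice. The number of mice behind the GW2580 arrays, the doses the 1-week mice had received, and the age and sex of the mice were not stated in the labels used here, so p-values may measure a spread that is technical. No untreated group, no cultured MVT1 cells and no normal lung were among the 6 arrays.

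Levels are log2 values made with RMA on whole-genome Affymetrix arrays, so a difference of 1 is a 2-fold change. A gene is said to have risen or fallen where limma, fitted over all 13090 genes, gave an adjusted p under 0.05. Errors of differences are standard errors (SE), and intervals are 95% confidence intervals of limma without adjustment. Replicates of a group correlated at 0.9921, 0.9921 and 0.988 over the genes tested. By their control probe sets 2 arrays stood apart. The gap between the 3' and 5' ends of beta-actin mRNA, which widens as RNA degrades, was 1.20 on 2-week vehicle replicate 2, against 0.38 to 0.50 elsewhere, and a hybridisation control read 10.03 on 1-week replicate 1, against 8.74 to 9.02. The keratins of simple epithelium, Krt8 and Krt18, read 13.52 to 13.82 and 12.93 to 13.44 on the 6 arrays. Of 7 epithelial markers 4 passed the filter, with Epcam at 6.85 to 7.31, while Cdh1, Cldn4 and Cldn7 lay below it. In cells sorted in bulk, fewer cells of a type and less RNA per cell cannot be told apart.

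Cells make cholesterol from acetyl-CoA through mevalonate, the isoprenoid farnesyl diphosphate, squalene and lanosterol. When membranes run low on sterol, the escort protein SCAP carries the transcription factor SREBP2 to the Golgi, where it is cut free and switches on the enzymes of the pathway, while INSIG proteins hold SCAP back when sterol is plentiful. SREBP1 does the same chiefly for fatty acid synthesis. When oxysterols build up, LXR switches on the exporters ABCA1 and ABCG1 and the ubiquitin ligase MYLIP, which sends lipoprotein receptors for degradation. Tumour cells that divide need sterols and fatty acids for new membrane and often make them rather than take them up.

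The stretch upstream of the gene start is shown for 6 members. They were shown because the sterol genes and Insig1 differed below 0 with time and the LXR targets Abca1 and Mylip above 0. Of those shown, Idi1 and Mylip did not pass the test. Abcg1 had no promoter entry, and no motif of LXR was searched for. The sequences are the 250 bases before the start in RefSeq (GRCm38.p6), 5′ to 3′ on the strand of the gene. Capitals mark matches on either strand to TCACNCCAC, a form of the sterol response element bound by SREBP, and to CCAAT, the box bound by its partner NF-Y, which reads ATTGG on the other strand.
Hmgcs1, chr13:119690101-119690350, plus strand: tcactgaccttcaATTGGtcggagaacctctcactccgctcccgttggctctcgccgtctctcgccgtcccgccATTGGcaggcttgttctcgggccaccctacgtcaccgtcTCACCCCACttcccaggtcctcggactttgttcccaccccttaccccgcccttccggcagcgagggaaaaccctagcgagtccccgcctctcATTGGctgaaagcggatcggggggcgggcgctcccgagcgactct
Idi1, chr13:8885356-8885605, plus strand: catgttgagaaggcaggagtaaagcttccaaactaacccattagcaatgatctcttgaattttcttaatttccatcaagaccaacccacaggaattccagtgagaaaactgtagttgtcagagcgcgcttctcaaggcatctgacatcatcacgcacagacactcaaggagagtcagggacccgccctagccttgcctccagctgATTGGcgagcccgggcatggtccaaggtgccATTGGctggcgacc
Cyp51, chr5:4104698-4104947, minus strand: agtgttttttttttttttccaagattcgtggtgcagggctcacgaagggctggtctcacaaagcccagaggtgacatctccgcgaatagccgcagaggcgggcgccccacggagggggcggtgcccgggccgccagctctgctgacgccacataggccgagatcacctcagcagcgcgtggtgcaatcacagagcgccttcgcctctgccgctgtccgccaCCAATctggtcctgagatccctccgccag
Insig1, chr5:28071162-28071411, plus strand: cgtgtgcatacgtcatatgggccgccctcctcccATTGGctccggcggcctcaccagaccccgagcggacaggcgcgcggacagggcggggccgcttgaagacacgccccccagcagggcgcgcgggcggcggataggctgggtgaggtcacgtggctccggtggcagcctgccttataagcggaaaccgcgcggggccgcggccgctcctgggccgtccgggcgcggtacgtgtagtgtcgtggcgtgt
Abca1, chr4:53159896-53160145, minus strand: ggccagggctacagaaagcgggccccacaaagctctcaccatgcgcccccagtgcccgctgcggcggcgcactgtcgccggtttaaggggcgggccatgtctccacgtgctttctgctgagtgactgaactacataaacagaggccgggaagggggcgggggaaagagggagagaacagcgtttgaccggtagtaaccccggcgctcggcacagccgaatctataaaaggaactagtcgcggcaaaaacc
Mylip, chr13:45389492-45389741, plus strand: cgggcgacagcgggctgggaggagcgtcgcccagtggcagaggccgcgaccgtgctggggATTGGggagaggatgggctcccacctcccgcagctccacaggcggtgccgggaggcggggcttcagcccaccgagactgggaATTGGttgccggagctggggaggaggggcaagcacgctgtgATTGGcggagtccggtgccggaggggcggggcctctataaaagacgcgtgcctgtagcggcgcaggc
Hmgcs1 held the 1 match to TCACNCCAC among all member starts, 137 bases before its start, beside 3 CCAAT boxes. Idi1 held 2 CCAAT boxes within 45 bases of its start, Cyp51 and Insig1 held 1 each, Mylip 3 and Abca1 none. RefSeq had an entry for 29 of the 36 members, with 38 starts. For sterol synthesis these were 18 starts of 15 genes, Acat2 among them, and Dhcr7 and Pmvk had more than 1 start each. CCAAT was found in 14 of 18 starts of sterol synthesis genes (77.8%), against 33.8% of all 32851 starts of the same length, and 9 of the 18 held at least 2 boxes, against 10.1% of all. The GC box GGGCGG was found in 15 of the 18 (83.3%), against 32.7% of all, and the E-box CACGTG in 3 of the 18, against 6.02%. TCACNCCAC was in 1.05% of all starts. Both strands were searched for each motif, and none of the 4 contains another. These are matches of letters, not sites of binding.

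From 1 to 2 weeks in vehicle-treated mice, sterol synthesis genes were lower and sterol exporters higher, while the fatty acid enzymes did not pass the test. Of 34 members 8 fell, where 2.71% of all genes tested fell, and 2 rose, where 3.74% of all genes rose. The 8 were 7 of 17 sterol synthesis enzymes (Hmgcs1, Fdps, Sqle, Cyp51, Msmo1, Ebp and Sc5d) and the sterol sensor gene Insig1. The 2 that rose were the exporters Abca1 and Abcg1. All 17 sterol synthesis genes had a difference below 0, as did 47.1% of all genes, and in 16 of them both 2-week arrays lay below both 1-week arrays, as in 25.2% of all genes. At an unadjusted p under 0.05 were 21 of the 34 members, as were 23.6% of all genes. The median difference was -0.72 for sterol synthesis, -0.13 for sterol sensing and transport, -0.23 for fatty acid synthesis and 1.10 for the LXR group, beside 0.02 over all genes tested.

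**Figure D1:**
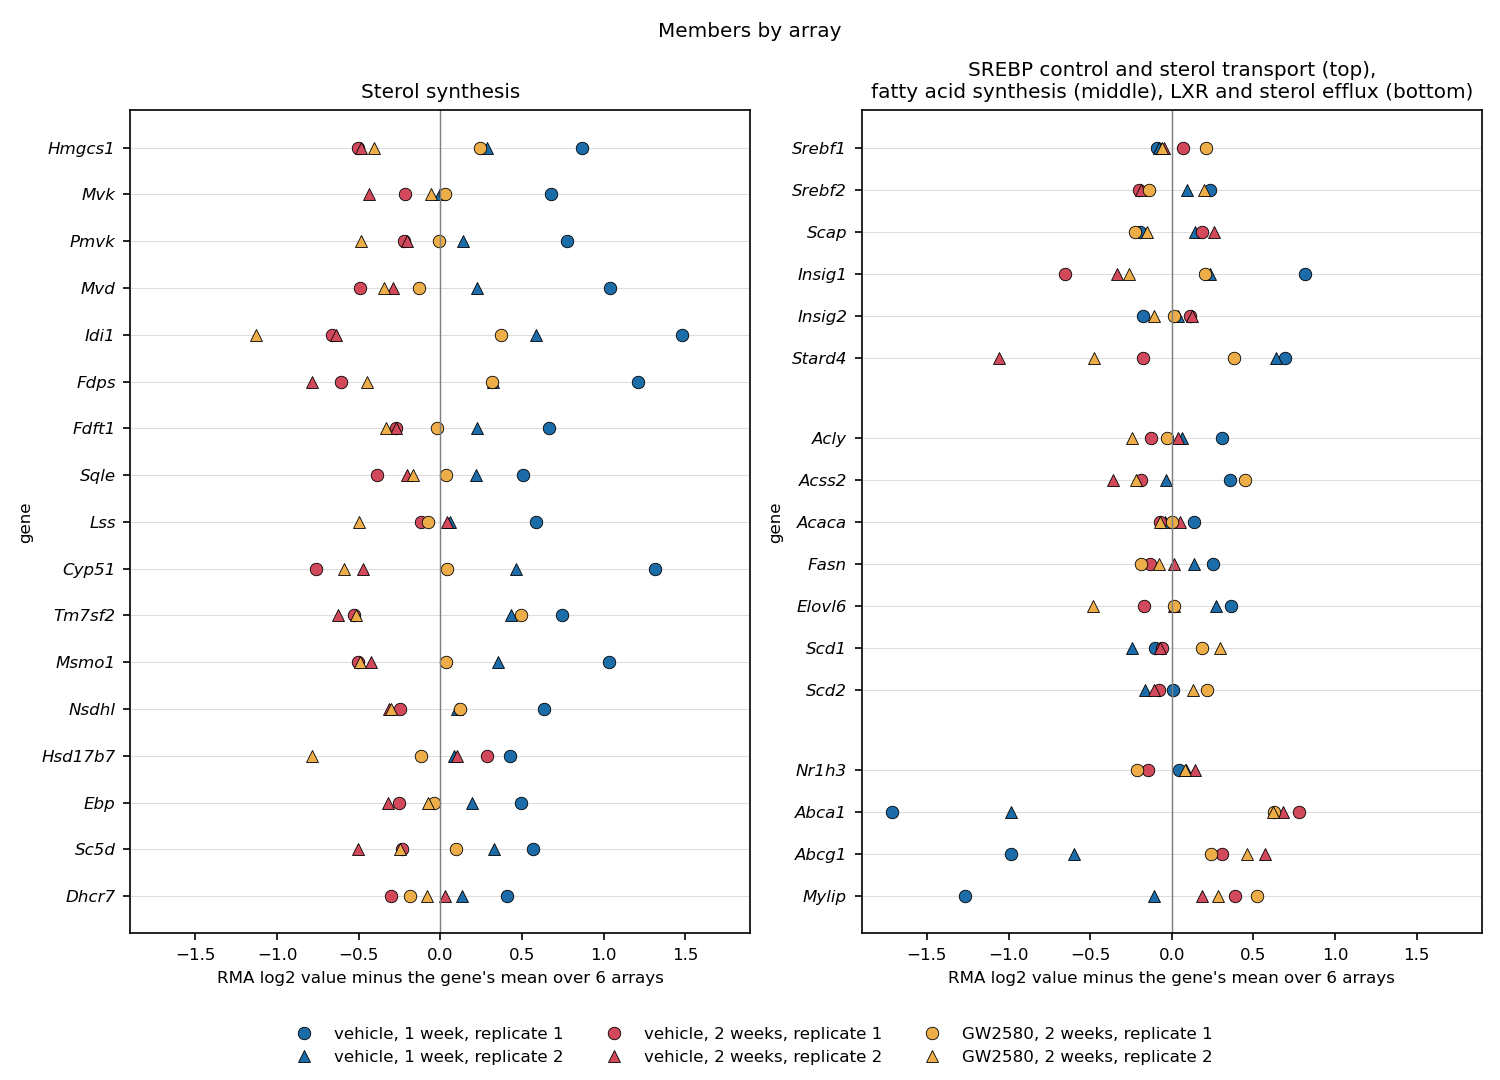
RMA log2 value of each of the 34 members on each of the 6 arrays, as the deviation from the mean of that gene (x axis), with genes as rows grouped by role, colours for the groups, circles for replicate 1 and triangles for replicate 2. For 16 of 17 sterol synthesis genes both 1-week arrays (blue) lie right of both 2-week vehicle arrays (red), and for Abca1 and Abcg1 they lie left of all 4 other arrays.

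In the mevalonate steps, Hmgcs1, which makes HMG-CoA, read 11.18 and 10.60 at 1 week and 9.81 and 9.82 at 2 weeks. It fell by 1.07 (SE 0.25, limma adjusted p = 0.0441), or 2.10-fold, with no overlap between the groups. The kinase genes Mvk and Pmvk, which phosphorylate mevalonate in turn, differed by -0.67 each and did not pass the test. Mvd, the decarboxylase that yields isopentenyl diphosphate, read 8.33 and 7.52, then 6.80 and 7.01, and at -1.02 (SE 0.25) just missed the threshold, with an adjusted p of 0.0503.

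Idi1, the isomerase that interconverts the isoprenoid building blocks, had the largest difference of any member in the sterol group. It read 11.27 and 10.37 at 1 week against 9.12 and 9.15 at 2 weeks, a difference of -1.68. The 1-week arrays lay far apart, however, and with an SE of 0.45 the adjusted p was 0.0664. Fdps, which makes farnesyl diphosphate for sterols and for protein prenylation, read 11.84 and 10.95, then 10.02 and 9.84. It fell by 1.46 (SE 0.32, limma adjusted p = 0.0393), a 2.76-fold change.

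Squalene is the first compound committed to sterols. Fdft1, squalene synthase, went from 9.79 and 9.35 to 8.85 and 8.85, a difference of -0.72 with an adjusted p of 0.0546. Sqle, the squalene epoxidase, read 11.55 and 11.26, then 10.65 and 10.83, and fell by 0.66 (SE 0.15, adjusted p = 0.0444). Lss, which closes the ring to lanosterol, read 8.19 and 7.66, then 7.48 and 7.64, so that the groups nearly met. Its difference of -0.37 (SE 0.21) did not pass.

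Downstream of lanosterol, the demethylase gene Cyp51 fell most. It read 9.60 and 8.75 at 1 week and 7.52 and 7.81 at 2 weeks, a fall of 1.51 on the log2 scale (SE 0.30, limma adjusted p = 0.0329), or 2.84-fold. Msmo1, the C4 methyl oxidase, read 10.68 and 10.00, then 9.13 and 9.22, and fell by 1.16 (SE 0.25, adjusted p = 0.0369). Both genes were lower on each 2-week array than on each 1-week array. Tm7sf2, the C14 sterol reductase, went from 8.18 and 7.87 to 6.91 and 6.81, and with a difference of -1.17 (SE 0.29) had an adjusted p of 0.0543.

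Of the late steps, Ebp, the sterol isomerase, read 10.99 and 10.69, then 10.24 and 10.17, and fell by 0.63 (SE 0.14, adjusted p = 0.0407). Sc5d, the desaturase after it, read 9.20 and 8.96, then 8.40 and 8.13, and fell by 0.82 (SE 0.17, adjusted p = 0.0357). Nsdhl, which removes the C4 carboxyl group, differed by -0.65 (SE 0.21), and Dhcr7, the last reductase before cholesterol, by -0.41 (SE 0.16), neither past the threshold. Hsd17b7, the ketoreductase that works beside Nsdhl, was the sterol enzyme whose groups overlapped. It read 8.85 and 8.51 at 1 week and 8.71 and 8.52 at 2 weeks, a difference of -0.06 (interval -0.58 to 0.46).

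Other probe sets of the same genes were read as a check on the measurement. The 17 sterol synthesis genes had 33 probe sets above the filter, of which 29 differed below 0 in this comparison. The 5 probe sets of Hmgcs1 gave -1.02 to -1.68, the second set of Idi1 gave -1.55, and the second of Cyp51, at a mean of 6.10, gave -1.20. Of the 16 that were not the brightest of their gene, 4 had the opposite sign: 1 of Fdft1 (0.17), 1 of Cyp51 (0.01, at 5.03 near the filter) and 2 of Hsd17b7 (0.01 and 0.03).

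**Figure D2:**
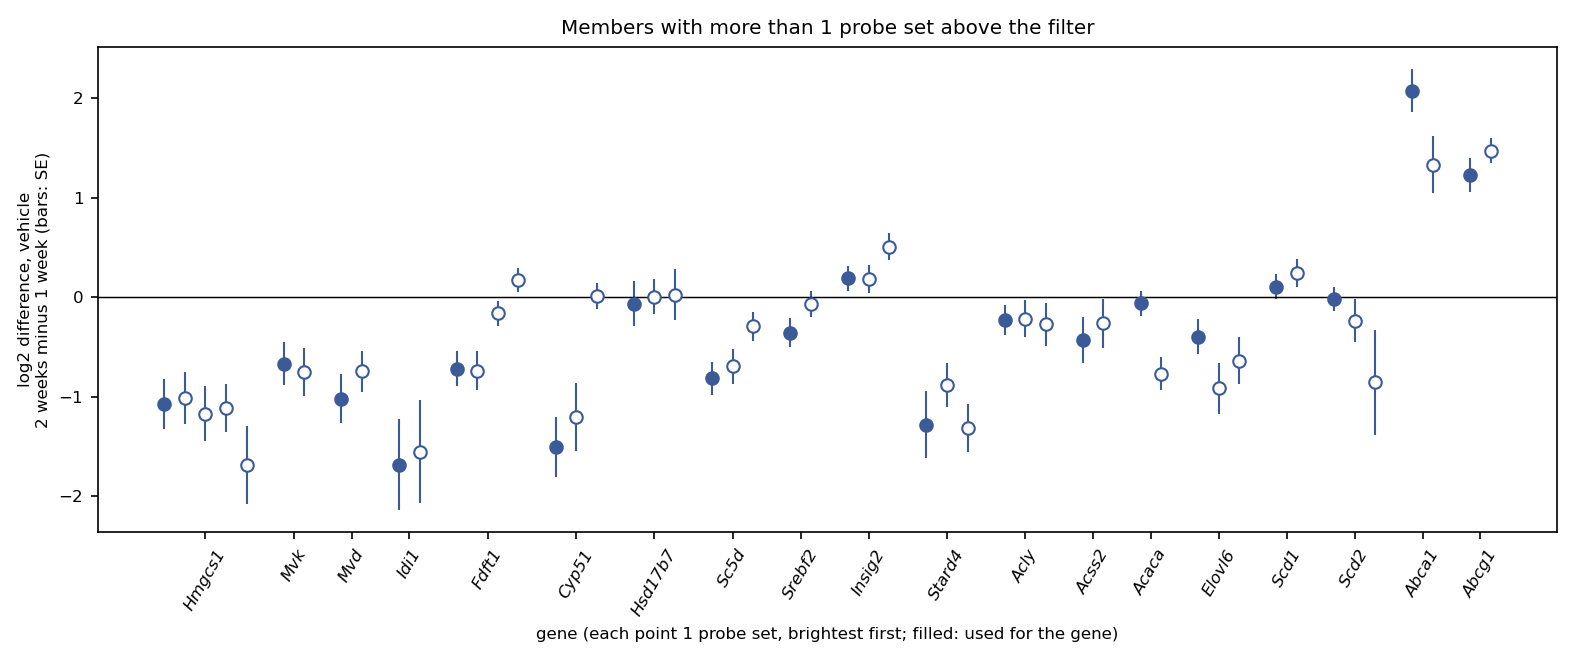
Log2 difference between 2-week and 1-week vehicle arrays (y axis, bars are the SE) for each probe set above the filter, in the 19 members with more than 1 such probe set; filled points are the probe sets used for the gene. The 5 sets of Hmgcs1 lie together between -1.02 and -1.68, and 1 of the 4 of Fdft1 and 1 of the 3 of Cyp51 lie just above 0.

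Among the genes that sense and move sterol, Insig1, which retains SCAP in the endoplasmic reticulum and is itself an SREBP target, read 9.42 and 8.83 at 1 week and 7.94 and 8.26 at 2 weeks. It fell by 1.02 (SE 0.23, limma adjusted p = 0.0434), or 2.03-fold. Its relative Insig2, which is not under the same SREBP control, read 9.67 and 9.88, then 9.96 and 9.97, and differed by 0.19 (interval -0.11 to 0.49). The dimmer probe sets of Insig2 gave 0.19 and 0.51, the latter with a limma adjusted p of 0.100 over all probe sets. Stard4, a carrier that moves cholesterol between membranes, read 8.68 and 8.62, then 7.81 and 6.93. Its difference of -1.28 (SE 0.33) was as large as those of the enzymes that fell. However, the 2-week arrays lay far apart and the adjusted p was 0.0594. Its other 2 probe sets gave -0.88 and -1.32, with limma adjusted p of 0.0865 and 0.0392 over all probe sets. The dimmest of the 3 thus passed where the probe set used did not.

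The transcription factor genes themselves moved little. Srebf2 read 9.06 and 8.92, then 8.63 and 8.64, a difference of -0.36 (SE 0.15, adjusted p = 0.195), and its second probe set, nearly as bright, gave -0.07. Srebf1 read 9.86 and 9.87, then 10.02 and 9.91, and Scap read 9.75 and 10.08, then 10.13 and 10.20. Their differences of 0.10 and 0.25 did not pass, and that of Scap was -0.11 when all its probe sets were averaged. SREBP activity is set by cleavage of the protein, which these arrays do not measure.

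On the probe sets used, fatty acid synthesis genes differed by -0.43 to 0.11, and 0 of 7 passed the test. Acly, which makes cytosolic acetyl-CoA from citrate, read 11.01 and 10.76, then 10.58 and 10.74, and Acaca, the carboxylase that makes malonyl-CoA, 9.16 and 8.98, then 8.95 and 9.07. Fasn, the synthase, read 10.90 and 10.79, then 10.52 and 10.67, a difference of -0.25 (interval -0.55 to 0.04). These 3 enzymes form the trunk of the pathway. The second probe set of Acaca, at a mean of 5.21, differed by -0.77 (SE 0.16, limma adjusted p = 0.0589 over all probe sets), and the mean of its probe sets by -0.41 (adjusted p = 0.076). Elovl6, which lengthens palmitate, read 10.37 and 10.28, then 9.84 and 10.02 (difference -0.40, adjusted p = 0.229), and its 2 dimmer probe sets gave -0.92 and -0.64.

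The desaturases Scd1 and Scd2, which make monounsaturated fatty acids, differed by 0.11 (interval -0.18 to 0.40) and -0.02 (interval -0.31 to 0.28). Scd2 was bright throughout, at 11.89 and 11.72, then 11.80 and 11.78, while the third of its probe sets differed by -0.85 (adjusted p = 0.498). The acetate-activating enzyme gene Acss2 read 7.15 and 6.76, then 6.61 and 6.44, with a difference of -0.43 and an SE of 0.23. Whether probe sets of close relatives such as Scd1 and Scd2 read each other's RNA was not tested. Whether the sterol and the fatty acid genes differed from each other in their change was not tested either.

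The exporters showed the reverse of the sterol enzymes. Abca1, which loads cholesterol onto lipid-poor apolipoprotein A-I, read 6.39 and 7.11 at 1 week and 8.88 and 8.78 at 2 weeks. It rose by 2.08 (SE 0.22, limma adjusted p = 0.0102), a 4.22-fold change, and its second probe set, at a mean of 5.30, gave 1.33. Abcg1, which exports sterol to mature lipoprotein particles, read 7.87 and 8.25, then 9.16 and 9.43. It rose by 1.23 (SE 0.17, adjusted p = 0.0139), or 2.35-fold, and its second probe set, at 6.35, gave 1.48.

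Mylip, the third LXR target of the set, read 7.67 and 8.83 at 1 week and 9.32 and 9.12 at 2 weeks. The groups did not overlap, but the 1-week arrays differed by more than 1 log2 unit, and the difference of 0.97 (SE 0.32) had an adjusted p of 0.116. Nr1h3, which encodes LXR alpha, was dim at 5.93 to 6.21 on the 4 vehicle arrays and differed by -0.07 (interval -0.43 to 0.29). Over Abca1, Abcg1 and Mylip the mean was 7.31 and 8.06 at 1 week and 9.12 and 9.11 at 2 weeks.

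Other genes of these pathways, listed by function with earlier results known, moved less evenly. Of 10 further sterol pathway genes 0 passed, with 4 at an unadjusted p under 0.05, where 23.6% of all genes were. Of these, Erg28, which encodes a scaffold of the C4 demethylation enzymes, differed by -0.55 (adjusted p = 0.0559) and Ggps1, which draws farnesyl diphosphate into geranylgeranyl diphosphate, by 0.45. Of 17 further fatty acid and lipid genes 3 rose and 1 fell, where 3.74% of all genes rose and 2.71% fell. Cpt1a, the gate of fatty acid oxidation in mitochondria, rose by 1.12 (SE 0.24, adjusted p = 0.0383), the triglyceride lipase gene Pnpla2 by 0.79 (SE 0.16) and the phosphatidate phosphatase gene Lpin1 by 0.63 (SE 0.13). Malic enzyme, Me1, which supplies NADPH to lipid synthesis, fell by 0.61 (SE 0.13, adjusted p = 0.0378). Of 7 further LXR and RXR genes 0 passed, with 2 at an unadjusted p under 0.05, the phospholipid transfer protein gene Pltp at 0.54 and Rxrb at 0.36.

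These counts changed when single arrays were left out, which also lowered the residual degrees of freedom of the fit from 3 to 2. Without replicate 1 of the 1-week group, or without either 2-week vehicle array, 0 members fell, although the median of the sterol synthesis genes was then -0.52, -0.78 and -0.72. Without replicate 1 of the 1-week group 0 members rose, with Abca1 at 1.72 (adjusted p = 0.0685) and Abcg1 at 1.04 (adjusted p = 0.145), and when 2-week vehicle replicate 2 was left out Abcg1 did not pass (adjusted p = 0.0615). Without replicate 2 of the 1-week group Mylip passed, at 1.55 (adjusted p = 0.0234).

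Replicate 1 of the 1-week group was the highest array for the sterol enzymes. It exceeded replicate 2 in 17 of 17 sterol synthesis genes, where it did so in 45.1% of all genes tested, and the list means were 9.80 and 9.25. Markers of fibroblasts and smooth muscle, 8 of 8 measured, moved with it: their mean was 8.25 and 7.35 at 1 week, against 7.03 ± 0.03 (SD, n = 2) for 2-week vehicle and 7.43 and 6.72 for GW2580. The collagen genes Col3a1 and Col1a2, the brightest of them, read 11.68 and 10.89 on that array. With time 7 of the 8 differed below 0, as did 47.1% of all genes. None passed, with 4 at an unadjusted p under 0.05, where 23.6% of all genes were. The club cell gene Scgb1a1 also lay lower at 2 weeks and higher on replicate 1 of the 1-week group, at 11.31 and 9.59 at 1 week and 6.49 and 8.08 at 2 weeks, a difference of -3.16 (SE 1.02, unadjusted p 0.015, adjusted p = 0.109 by limma). Of the 6 alveolar and airway markers Scgb1a1 was the only 1 below 0 with time, and 5 lay above 0. Their list means, Scgb1a1 included, were 8.25 and 8.27 at 1 week. The part of fibroblasts, smooth muscle and club cells in the sterol difference was not tested.

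**Figure D3:**
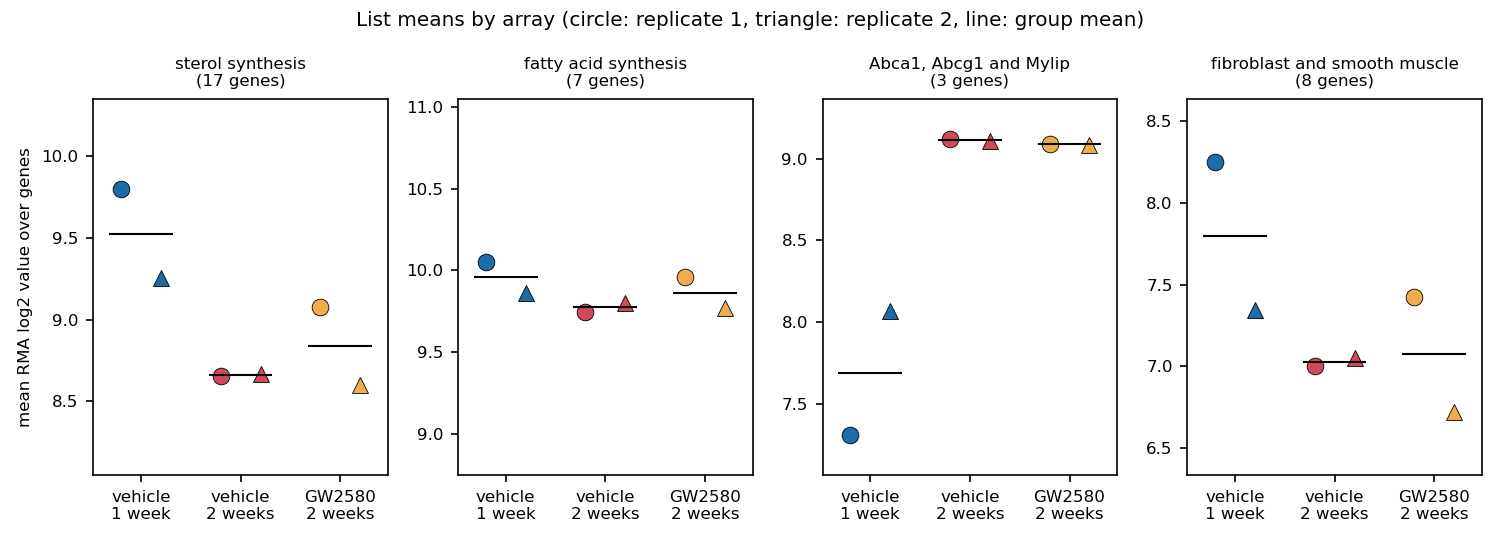
Mean RMA log2 value over the genes of a list (y axis) on each array, for sterol synthesis, fatty acid synthesis, the 3 LXR targets and the fibroblast and smooth muscle markers; circles are replicate 1, triangles replicate 2, lines the group means, and the 4 axes span the same number of log2 units. Sterol synthesis reads 9.80 and 9.25 at 1 week against 8.65 and 8.67 at 2 weeks, and the fibroblast markers show the same order of replicates at 1 week and with GW2580.

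Markers of other cells were read for the exporters too, since macrophages express Abca1 and Abcg1. The 11 macrophage and leukocyte markers had a mean of 7.49 and 7.54 at 1 week, 7.32 and 7.69 at 2 weeks with vehicle, and 6.97 and 7.40 with GW2580. Their brightest members were Cd68, at 9.66 to 11.00, and Lyz2, at 8.89 to 9.85. With time 3 of the 11 differed above 0 and 8 below, where 47.1% of all genes lay below. Fabp4 encodes a fatty acid carrier found in alveolar macrophages, and also in adipocytes and endothelium. It read 6.44 and 5.77 at 1 week and 7.59 and 8.32 at 2 weeks, a difference of 1.85 (SE 0.47, adjusted p = 0.0583), the highest of the 11 and not past the test. Cd68 differed by 0.98 (adjusted p = 0.115), and Ptprc, which marks leukocytes at large, fell by 0.61 (SE 0.13, adjusted p = 0.0387). With GW2580 Fabp4 read 4.97 and 6.51, a difference of -2.22 from vehicle (adjusted p = 0.0859), the lowest of all 13090 genes tested. Alveolar and airway markers lay above 0 with time in 5 of 6 cases, as did 6920 of 13090 genes tested. The 1 below was Scgb1a1, at -3.16. With it included, list means were 8.25 and 8.27 at 1 week and 8.20 and 8.11 at 2 weeks. Sftpd, a surfactant protein gene of alveolar type II cells, rose by 0.89 (SE 0.16, adjusted p = 0.0250), from 6.43 ± 0.07 to 7.31 ± 0.26 (SD, n = 2 each). The part of these cells in the exporter difference was not tested. Of 4 endothelial markers above the filter none passed (list means 5.67 to 5.92 on the 6 arrays, with Kdr and Tie1 brightest), and 3 adipocyte markers lay below the filter on average, with Adipoq at 3.20 to 3.79.

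GW2580 against vehicle at 2 weeks asked whether blocking the CSF1 receptor altered the tumour cells, and no member passed the test in this comparison. Called genes were 0 of 34, where 0.367% of all genes were called in either direction, and 3 members had an unadjusted p under 0.05 (Hsd17b7, Scap and Scd1), where 18% of all genes did. The smallest adjusted p of a member was 0.199. Sterol synthesis genes had a median difference of 0.23, beside -0.05 over all genes, and 14 of 17 were above 0, as were 41.7% of all genes. Both GW2580 arrays exceeded both vehicle arrays in 6 of the 17, as in 18.3% of all genes.

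**Figure D4:**
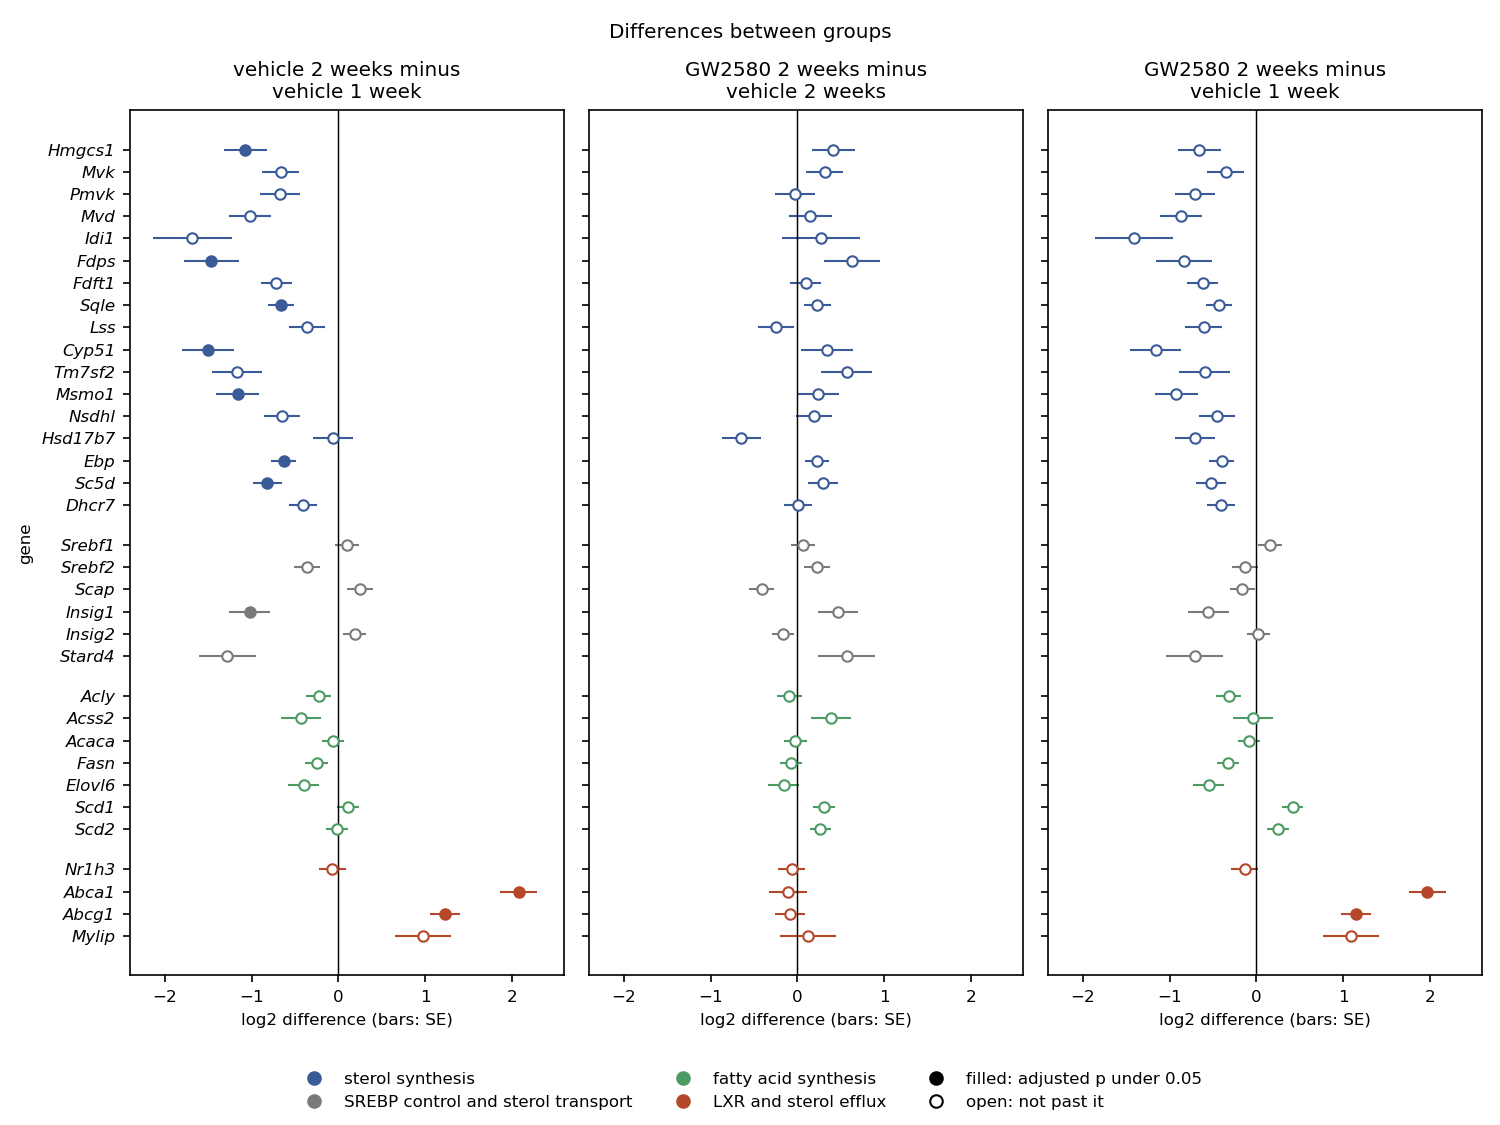
Log2 differences of the 34 members (points, with bars of 1 SE on the x axis) in the 3 comparisons, genes as rows and colours for roles; filled points passed an adjusted p of 0.05. In the first panel 10 points are filled, in the middle panel 0 and in the last 2, Abca1 and Abcg1. The panels share arrays, so they are not independent.

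The replicates of the GW2580 group differed from each other more than this median. Replicate 1 exceeded replicate 2 in 16 of 17 sterol synthesis genes, where it did so in 39.3% of all genes, and the list means were 9.08 and 8.60, against 8.65 and 8.67 on the vehicle arrays. Replicate 1 lay above both vehicle arrays in 14 of the 17 genes, and replicate 2 in 6, with 5 below both. The share over all genes was not counted for single arrays, so nothing is read from these positions alone. Collagen genes followed the same order, with Col3a1 at 10.90 and 8.98 and Col1a2 at 10.02 and 8.24. Scgb1a1 did too, at 10.91 and 7.59; the part of such cells in the sterol values was not tested.

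Fdps had the largest positive difference of the sterol enzymes, at 10.94 and 10.18 with GW2580 against 10.02 and 9.84 with vehicle, or 0.63 (interval -0.11 to 1.37). Idi1 read 10.16 and 8.66, so its arrays lay on either side of the vehicle values of 9.12 and 9.15, and its interval ran from -0.77 to 1.32. The difference of 0.27 became -0.48 without replicate 1 and 1.02 without replicate 2 of GW2580. Cyp51 read 8.33 and 7.70 (difference 0.34, interval -0.34 to 1.03), Hmgcs1 10.55 and 9.91 (0.41, interval -0.16 to 0.98) and Insig1 8.80 and 8.34 (0.47, interval -0.07 to 1.01). A rise of 1.5-fold lies inside each of these 5 intervals. Tm7sf2 read 7.93 and 6.93, a difference of 0.57, and passed when replicate 2 was left out (1.07, adjusted p = 0.0498).

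Hsd17b7 went the other way from most sterol genes. It read 8.30 and 7.64 with GW2580 against 8.71 and 8.52 with vehicle, without overlap, and the difference of -0.65 (SE 0.23) had an adjusted p of 0.199. Its other probe sets above the filter gave -0.29 and -0.22. Scap read 9.72 and 9.79 against 10.13 and 10.20, a difference of -0.41 (adjusted p = 0.203). The difference of Scap was -0.14 when all its probe sets were averaged, the dimmer of which lay below the filter at a mean of 4.77. Scd1 read 10.16 and 10.27 against 9.91 and 9.90, a difference of 0.31 (adjusted p = 0.250), and Scd2 read 12.10 and 12.01 against 11.80 and 11.78. These 4 genes were among the members whose groups did not overlap. Of the 34 members 4 lay lower without overlap, as did 31.5% of all genes, and 10 higher, as did 18.3%.

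Among the other fatty acid genes the differences were small: Fasn differed by -0.08 (interval -0.37 to 0.22), Acaca by -0.02 (interval -0.32 to 0.28) and Acly by -0.09 (interval -0.43 to 0.25). Acss2 read 7.25 and 6.58 and Elovl6 10.03 and 9.53, their replicates again apart. The dim second probe set of Acaca, at 5.21, differed by 0.72 where the bright one differed by -0.02. The third set of Scd2 differed by 1.29, and read 6.37 on replicate 2 of the 2-week vehicle group against 8.15 to 8.82 on the other arrays.

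The exporters read close to their 2-week vehicle level on the probe sets used. Abca1 read 8.72 and 8.72 with GW2580, a difference of -0.11 from vehicle (interval -0.61 to 0.39), and Abcg1 9.10 and 9.31, a difference of -0.09 (interval -0.49 to 0.31). Mylip read 9.45 and 9.22, a difference of 0.12 (interval -0.63 to 0.86). The second probe set of Abcg1 gave another result: it read 7.05 and 7.22 with vehicle and 6.25 and 6.23 with GW2580, a fall of 0.90 (SE 0.13) with a limma adjusted p of 0.0449 over all probe sets. The 2 probe sets of Abcg1 thus disagreed on GW2580, although both were higher at 2 weeks than at 1 week with vehicle, and what parts of the transcript they read was not tested.

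No listed gene of the wider pathways passed in this comparison, of 10 sterol, 17 lipid and 7 LXR and RXR genes. At an unadjusted p under 0.05 were 4, 3 and 1 of them, where 18% of all genes were. Ggps1 differed by -0.56 and Nus1, a subunit of the prenyltransferase that makes dolichol, by -0.36. Pnpla2 differed by -0.68 (adjusted p = 0.100), Cpt1a by -0.72, Pltp by 0.75 (adjusted p = 0.115) and the transporter gene Abca2 by 0.19. Of 6 alveolar and airway markers, of which Scgb1a1 and Abca3 were brightest, 5 differed below 0, as did 7626 of 13090 genes tested. The surfactant protein genes Sftpa1 and Sftpd fell by 1.78 and 1.12 with GW2580, where 0.367% of all genes were called in either direction. Scgb1a1 went the other way, with a difference of 1.97. The list mean was 7.94 and 7.15 with GW2580 against 8.20 and 8.11 with vehicle.

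GW2580 at 2 weeks was also set against vehicle at 1 week, a comparison that shares arrays with both others. Of 34 members 2 rose, where 0.359% of all genes rose, and 0 fell, where 0.153% of all genes fell. Abca1 rose by 1.97 (SE 0.22, limma adjusted p = 0.0166) and Abcg1 by 1.14 (SE 0.17, adjusted p = 0.0400). The second probe set of Abca1 gave 1.16 and that of Abcg1 0.58. Neither passed over all probe sets (limma adjusted p 0.203 and 0.174). Mylip differed by 1.09 (SE 0.32, adjusted p = 0.147). The call on Abca1 was lost when 1-week replicate 1 or GW2580 replicate 2 was left out (adjusted p 0.0783 and 0.116), and that on Abcg1 without any 1 of the 6 arrays (adjusted p 0.0503 to 0.343).

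The sterol enzymes were lower with GW2580 at 2 weeks than with vehicle at 1 week in direction, but none passed. All 17 had a difference below 0, as did 54.2% of all genes, and in 14 both GW2580 arrays lay below both 1-week arrays, as in 27.9% of all genes. The median was -0.62, and 14 of 17 had an unadjusted p under 0.05, where 17% of all genes did. Idi1 differed by -1.41 (SE 0.45) and Cyp51 by -1.16 (SE 0.30, adjusted p = 0.111, the smallest of the group). Without replicate 1 of GW2580 the median was -0.94 and 2 members fell, Idi1 and Tm7sf2, and without replicate 2 it was -0.40 and 0 fell.

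Among the remaining groups, Stard4 differed by -0.71 and Insig1 by -0.56, the fatty acid genes had a median of -0.08 and none passed, and Scd1 differed by 0.42 (SE 0.12, adjusted p = 0.151). Of the wider lists Pltp passed alone, with 9.41 and 9.45 at 1 week and 11.00 and 10.45 with GW2580, a rise of 1.29 (SE 0.19, adjusted p = 0.0382). It read 10.10 and 9.85 with vehicle at 2 weeks, between the other groups. The members of the wider lists next in p were Lpin1 at 0.58 and Me1 at -0.46 for lipid genes, and Nus1 at -0.47 and Tmem97, which encodes a sterol-binding membrane protein, at -0.62 for sterol genes.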

How the data were processed

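Expression was measured in GFP-tagged MVT1 cells on 6 Affymetrix whole-genome mouse arrays, in 3 groups of 2. The authors deposited RMA log2 values (per the submitters' processing notes, which name no version). RMA subtracts background, makes the arrays' distributions alike and summarises probes, which hides any change common to most genes. Array medians were 5.57 to 5.63. Arrays give no depth, and their number limits the precision.

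Of 45037 probe sets other than 64 controls, 34945 had 1 gene symbol in the platform annotation, 932 several and 9160 none there. By gene ID 34741 matched the RefSeq table (GRCm38.p6), and 0 symbols changed. Genes with a mean below 4.97, the 40th percentile of probe sets, were left out. limma 3.58.1 (R 4.3.3; lmFit with 3 group means, eBayes) was fitted to 13090 genes, with 3 residual and 4.97 prior degrees of freedom, with Benjamini-Hochberg adjustment over these genes. The procedure was tested on simulated data. With 2 arrays against 2, the smallest two-sided permutation p is 0.333, so limma alone was used.

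The members and lists were chosen with earlier results of these data known. All members are named; of the wider lists, per comparison, up to 6 called genes, or where there were none the 2 lowest in p; and of each marker list the 2 brightest. Other genes named (Ptprc, Epcam, Cdh1, Cldn4, Cldn7, Sftpa1, Sftpd, Adipoq, Fabp4) were chosen after their values were seen. Alternatives were the filter, the variance model, the arrays fitted, the probe set rule, the scaling, a replicate block and leaving out each array.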

Additional observations from a re-analysis of the deposited data

How the results depend on the processing

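The direction of the sterol synthesis median held in each alternative run: its range over leaving out 1 array was -0.99 to -0.52 in the time comparison, 0.04 to 0.35 for GW2580 against vehicle and -0.94 to -0.39 for GW2580 against 1 week. Counts of called members were less stable. In the time comparison the 8 members that fell became 1 (Cyp51) when p was adjusted over all probe sets and 15 with the replicate block, and leaving out 1 array gave 0 to 12; the 2 that rose became 0 to 3. For GW2580 against vehicle the counts were 0 lower and 0 to 1 higher on leaving out 1 array. For GW2580 against 1 week the 2 that rose became 0 on the mean of all probe sets of a gene, 1 with p adjusted over all probe sets, 1 with only the 4 arrays compared and 0 to 2 on leaving out 1 array, where 0 to 2 fell. Scap reversed to -0.11 in the time comparison on the mean of its probe sets, and on leaving out 1 array it ranged from -0.33 to 0.0062 against 1 week, above 0 without 1-week replicate 2.

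The labels gave no pairing of samples by replicate number. Same-numbered arrays deviated together at r = 0.002 between the vehicle groups, 0.292 between 1-week vehicle and GW2580, and 0.009 between 2-week vehicle and GW2580. With 2 arrays in a group these values cannot decide whether same-numbered arrays were handled together, so the block is given for its count alone. Centring arrays on their 75th percentile shifted them by -0.04 to 0.06 and left the counts of members that fell or rose within 1.5 times the main ones. Without 1 array its group holds a lone sample, assumed to vary like the others. For the 34 members taken singly over 14 alternatives each, 42 calls of the time comparison were lost and 27 gained, against 0 and 1 for GW2580 with vehicle and 12 and 3 for GW2580 with 1 week. A further 34 values smaller than their own SE changed sign, none of them called: 7, 20 and 7 in the 3 comparisons. Dim probe sets near the filter limit what can be read of the second sets of Acaca and Abca1 and the third of Cyp51.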
